A study of Mus musculus with 8 samples.

Results

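Genes through which endothelial cells (ECs) control blood clotting and the removal of clots were examined in hyperoxic and normoxic neonatal mouse lungs. They were the rows of the deposited gene table named Vwf, F3, F8, Thbd, Procr, Tfpi, Plat, Plau and Plaur, 9 of 54532 genes. The libraries came from lung ECs of wild-type C57BL/6J pups at postnatal day 14, 4 from pups kept in room air (normoxia, 21% O2) and 4 from pups kept in hyperoxia (80% O2) since postnatal day 0. No transgene or gene deletion was present in either group. Long exposure of newborn mice to high oxygen serves as a model of bronchopulmonary dysplasia, the chronic lung disease of preterm infants. ECs were taken as the cells that bound CD31 beads after CD45-positive leukocytes had been removed, and bulk RNA-seq was done on each isolate. The sources used here do not say whether each library came from 1 pup, so p-values measure the spread between libraries.

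Intact endothelium keeps blood fluid. Tissue factor, encoded by F3, starts clotting when it meets factor VII, von Willebrand factor tethers platelets and carries factor VIII, and thrombin then turns fibrinogen into fibrin. Against this, tissue factor pathway inhibitor blocks the first step, while thrombomodulin and the endothelial protein C receptor let thrombin activate protein C, which shuts down clotting cofactors. Fibrin is later dissolved by plasmin, which is made from plasminogen by the tissue-type activator (Plat) and the urokinase-type activator (Plau), the latter held at the cell surface by its receptor (Plaur).

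Libraries held 16098086 to 18300730 counts. Expression is given as CPM, counts scaled to the TMM-normalized library size, and log2 fold changes are hyperoxia minus normoxia with a standard error (SE) from the quasi-likelihood test of edgeR. Adjusted p-values were taken over all 15564 genes that passed the low-count filter, with 0.05 as the threshold. All 12 EC markers were detected, of which 5 rose and 3 fell, their sum being 18005 to 18951 CPM in normoxia and 18198 to 19119 CPM in hyperoxia. Cdh5, the cadherin of EC junctions, had 4121 and 4035 CPM on average. Markers of other lung cells were present too. All 8 markers of alveolar type 2 (AT2) epithelial cells rose, with summed levels of 276 to 409 CPM in normoxia and 2407, 2314, 806 and 2083 CPM in hyperoxia 1 to 4. Hyperoxia 3 stood apart in a further measure, since 4 genes of the Y chromosome (Uty, Kdm5d, Ddx3y, Eif2s3y) had 7 counts together there, whereas Xist, expressed from the inactive X chromosome, was nearly undetected in normoxia 2 (3 counts) and in hyperoxia 4 (5 counts). The other 5 libraries had counts of both, 8457 to 16982 of Xist and 1553 to 2413 on the Y-linked genes. A single male or female pup does not give both at such levels, so these 5 libraries appear to hold RNA of pups of both sexes.

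In the EC isolates of hyperoxic lungs, 6 of the 9 genes were higher, and all 9 passed the low-count filter. The 6 were F3, Procr, Tfpi, Plat, Plau and Plaur, and Vwf, F8 and Thbd did not pass the test. Over all genes tested, 35.6% passed in either direction and 18.5% were higher in hyperoxia. None of the 9 was lower by edgeR, where 17.1% of all genes were, and 0 were lower at an unadjusted p under 0.05, by DESeq2 or by limma-voom. The same 6 genes had groups that did not overlap, which was so for 35.4% of all genes, 17.8% in the higher and 17.6% in the lower direction. The median log2 fold change of the 9 was 0.74, beside a median of -0.004 over all genes tested, and 8 of the 9 values were positive. When the log2 fold change also had to reach 1 in size, F3 and Plau remained, 2 of 9, beside 6.98% of all genes, 5.62% higher and 1.36% lower. In bulk libraries such as these, fewer cells of a type and less RNA per cell cannot be told apart.

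**Figure D1:**
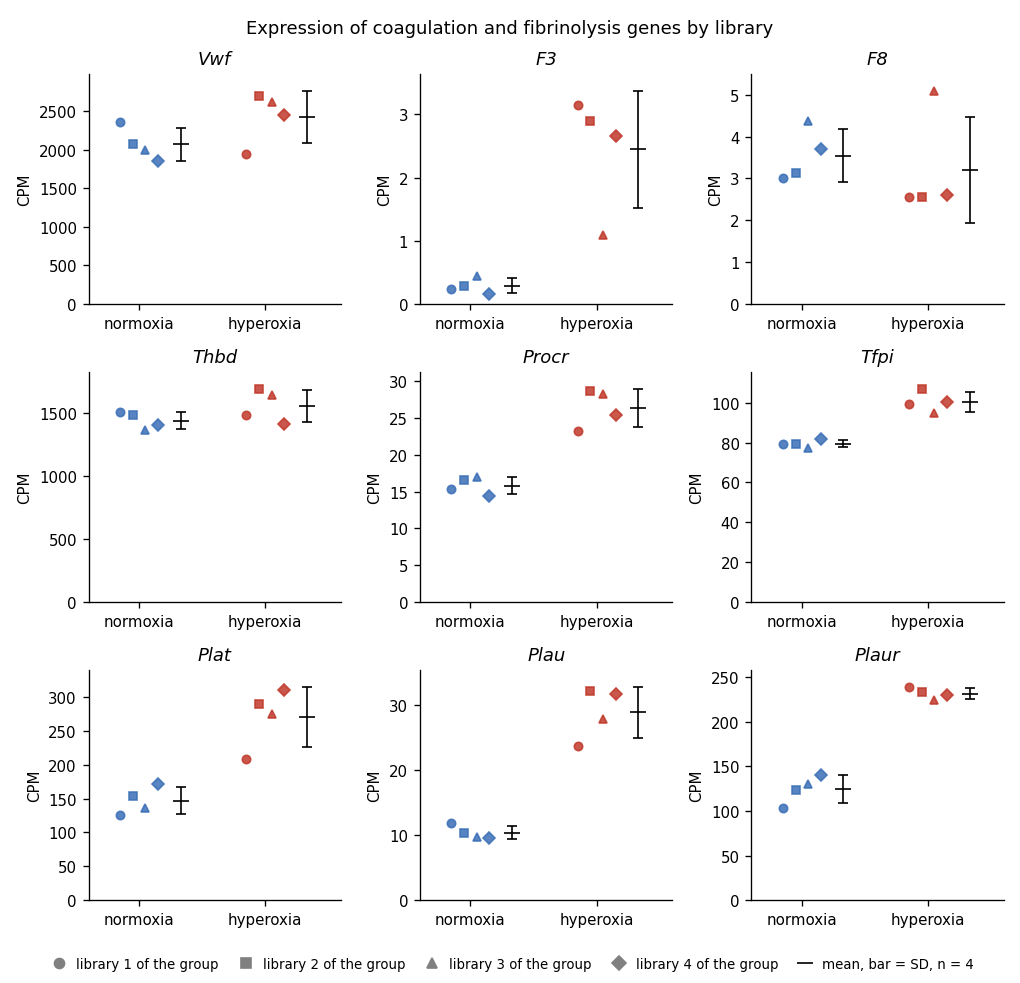
Expression of the 9 coagulation and fibrinolysis genes, in CPM, in each library of normoxia (blue) and hyperoxia (red). The marker shape gives the library number within its group, and the bar shows the mean and SD (n = 4). The groups are separate for F3, Procr, Tfpi, Plat, Plau and Plaur, and they overlap for Vwf, F8 and Thbd.

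Among the procoagulant genes, F3 rose and the others did not pass the test. F3 (ENSMUSG00000028128, chromosome 3, 121723537 to 121735048, plus strand, GRCm38) was read 4, 5, 8 and 3 times in normoxia 1 to 4, and 55, 51, 19 and 48 times in hyperoxia 1 to 4. These counts correspond to 0.245, 0.285, 0.448 and 0.166 CPM in normoxia, and to 3.14, 2.89, 1.09 and 2.66 CPM in hyperoxia. Every hyperoxia library lay above every normoxia library, and hyperoxia 3 was the lowest of its group. The mean went from 0.286 ± 0.119 to 2.44 ± 0.926 CPM (SD, n = 4 each), an 8.56-fold difference with a log2 fold change of 3.06 (SE 0.416, edgeR adjusted p = 0.000251). F3 was thus the most increased of the 9 genes on the log2 scale and also the one with the fewest counts. On the log2(FPKM + 1) scale, where the added 1 exceeds the level of the gene in normoxia, the difference was 0.80.

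The libraries followed the same order within hyperoxia for F3 and for AT2 markers. Hyperoxia 3, with the lowest F3, also had the lowest summed AT2 level of its group, and the receptor Ager, made by alveolar type 1 cells, had 60.5 CPM there where hyperoxia 1, 2 and 4 had 170 to 197 CPM. Sftpc, which encodes surfactant protein C, averaged 106 CPM in the normoxia libraries and 1121 CPM in the hyperoxia libraries, and no AT2 marker was at 0 in all libraries. Without hyperoxia 3, F3 still passed, and leaving out any single library gave log2 fold changes of 2.87 to 3.36. The hyperoxia libraries that remain without hyperoxia 3 are those with the higher AT2 sums. Leaving out single libraries thus does not bear on the part of these cells in the F3 result, which was not tested.

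Vwf (ENSMUSG00000001930, chromosome 6, 125546774 to 125686679, plus strand) is a large gene of 56 merged exons, and ECs store its product. Its levels were 2358, 2079, 1992 and 1854 CPM in normoxia and 1949, 2699.8, 2612 and 2449 CPM in hyperoxia. Hyperoxia 2, 3 and 4 exceeded all normoxia libraries, and hyperoxia 1 lay below normoxia 1, 2 and 3. The means were 2071 ± 213 and 2428 ± 335 CPM (SD, n = 4 each), with a log2 fold change of 0.23 (SE 0.103, 95% interval 0.0024 to 0.46, edgeR adjusted p = 0.107). Without hyperoxia 1 the value was 0.32 with an adjusted p of 0.0108, and without the low-count filter the adjusted p was 0.0474, within a range of 0.0108 to 0.261 over 18 alternatives.

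F8 (ENSMUSG00000031196, chromosome X, 75172715 to 75382615, minus strand), the cofactor that von Willebrand factor carries in blood, had levels of 3.0, 3.13, 4.36 and 3.70 CPM in normoxia. In hyperoxia it had 2.57, 2.55, 5.09 and 2.61 CPM. Hyperoxia 3 was the highest of all 8 libraries, and the other 3 hyperoxia libraries were below every normoxia library. The log2 fold change was -0.15 (SE 0.254, 95% interval -0.71 to 0.41, edgeR adjusted p = 0.685). Without hyperoxia 3 it was -0.46 with an adjusted p of 0.0923, the lowest of the 18 alternatives, which reached 0.932. F8 is X-linked, and hyperoxia 3, the library with 7 counts on the Y-linked genes, had 1372 CPM of Xist, the highest of the 8 libraries. The part of the sex of the pups in the F8 values was not tested.

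Of the anticoagulant genes, Procr and Tfpi rose, and Thbd did not pass the test. Procr (ENSMUSG00000027611, chromosome 2, 155751117 to 155755471, plus strand), the endothelial protein C receptor, had 15.4, 16.6, 17.0 and 14.4 CPM in normoxia and 23.2, 28.7, 28.2 and 25.4 CPM in hyperoxia. The groups were well separated, and the mean went from 15.8 ± 1.17 to 26.4 ± 2.58 CPM (SD, n = 4 each). The log2 fold change was 0.74 (SE 0.0888, edgeR adjusted p = 0.000115), or 1.67-fold.

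Tfpi (ENSMUSG00000027082, chromosome 2, 84432855 to 84476775, minus strand), the inhibitor of the tissue factor and factor VII complex, was the least variable of the 9 genes in normoxia, with 79.2, 79.3, 77.4 and 81.5 CPM. Hyperoxia libraries had 99.5, 107, 94.7 and 100.2 CPM, all above normoxia. The rise was small, 1.26-fold, but exceeded the spread between libraries, with a log2 fold change of 0.34 (SE 0.0472, edgeR adjusted p = 0.000301).

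Thbd (ENSMUSG00000074743, chromosome 2, 148404466 to 148408188, minus strand), a gene of a single exon, encodes thrombomodulin, which turns thrombin into an activator of protein C. It had 1513, 1483, 1370.0 and 1403 CPM in normoxia and 1483, 1693, 1641 and 1418 CPM in hyperoxia. Hyperoxia 2 and 3 were the highest libraries, and hyperoxia 1 and 4 lay within the normoxia range. The means were 1442 ± 66.8 and 1559 ± 130 CPM, and the log2 fold change of 0.11 (SE 0.0638, 95% interval -0.03 to 0.25) did not pass the test (edgeR adjusted p = 0.200).

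All 3 fibrinolysis genes rose, where 18.5% of all genes tested were higher in hyperoxia. Their median log2 fold change was 0.90, beside 0.34 for the 3 anticoagulant and 0.23 for the 3 procoagulant genes. Each median is the value of a single gene, Plaur, Tfpi and Vwf in turn. The procoagulant genes ran from -0.15 (F8) to 3.06 (F3), so these medians do not rank the roles. Plau (ENSMUSG00000021822, chromosome 14, 20836660 to 20843385, plus strand) had 11.8, 10.3, 9.68 and 9.61 CPM in normoxia. Its levels in hyperoxia were 23.8, 32.2, 27.9 and 31.6 CPM, so the lowest hyperoxia library exceeded the highest normoxia library by a wide margin. The mean went from 10.4 ± 1.03 to 28.9 ± 3.90 CPM (SD, n = 4 each), a log2 fold change of 1.48 (SE 0.112, edgeR adjusted p = 4.64e-06).

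Plaur (ENSMUSG00000046223, chromosome 7, 24462484 to 24475968, plus strand), the surface receptor of the urokinase-type activator, had 103, 124, 130.0 and 140.0 CPM in normoxia and 239, 233, 224 and 230.2 CPM in hyperoxia. Hyperoxia libraries lay close together, at 232 ± 6.13 CPM, and normoxia libraries were more spread, at 124 ± 15.7 CPM (SD, n = 4 each). The log2 fold change was 0.90 (SE 0.0801, edgeR adjusted p = 1.42e-05). Plat (ENSMUSG00000031538, chromosome 8, 22757727 to 22782844, plus strand), the tissue-type activator that ECs release, had 126, 153, 136 and 172 CPM in normoxia. In hyperoxia it had 208, 289, 274 and 311 CPM, all above normoxia, with hyperoxia 1 the lowest. Its log2 fold change was 0.88 (SE 0.125, edgeR adjusted p = 0.000335), from 147 ± 20.2 to 270.4 ± 44.2 CPM.

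Markers of fibroblasts and mural cells also moved with the groups. Of 7 tested fibroblast markers 4 rose and 1 fell, with summed levels of 124 to 185 CPM in normoxia and 257, 297, 148 and 240 CPM in hyperoxia 1 to 4. Of 7 tested mural and smooth muscle markers 6 rose, with sums of 23.5 to 47.9 CPM in normoxia and 45.4 to 107 CPM in hyperoxia. In hyperoxia 3, the library with the lowest sum of its group for both lists, Plau, Plaur, Plat and Procr had 27.9, 224, 274 and 28.2 CPM, Tfpi 94.7 CPM and F3 1.09 CPM, each above all normoxia libraries. Of these 6 genes, Plaur, Tfpi and F3 had their lowest hyperoxia value in that library. EC subtype markers moved as well. All 6 aerocyte capillary markers rose, their sums going from 1849 to 2214 CPM in normoxia to between 3462 and 3900 CPM in hyperoxia. By contrast, 4 of 6 general capillary markers fell and 1 rose, with sums of 8644 to 9993 CPM and 7169 to 8327 CPM. Of 8 arterial markers 5 fell, and 6 of 7 lymphatic and 4 of 5 tested venous markers rose. Venous sums overlapped, at 570 to 730 CPM in normoxia and 651 to 781 CPM in hyperoxia. Lymphatic sums did not, at 1251 to 1340 CPM and 1880 to 2147 CPM. Selp, a venous marker here, is also among the Weibel-Palade genes below, and Pdpn is in both the lymphatic and the alveolar type 1 list. Of the 8 alveolar type 1 markers 6 rose, and 1, Cav1, fell from 1930 to 1412 CPM. Cav1 was the most abundant of this list, whose sums were 2605 to 2814 CPM in normoxia and 2314 to 2465 CPM in hyperoxia. All 3 tested mast cell markers and the 1 tested mesothelial marker rose. The part of these cell types in the results for the 9 genes was not tested. Platelet markers, of which 1 of 7 tested rose, had sums of 26.8 to 33.9 CPM in normoxia and 30.6 to 46.7 CPM in hyperoxia. The 8 macrophage and monocyte markers, of which 1 rose and 1 fell, had sums of 117 to 219 CPM in normoxia and 119 to 196 CPM in hyperoxia.

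**Figure D2:**
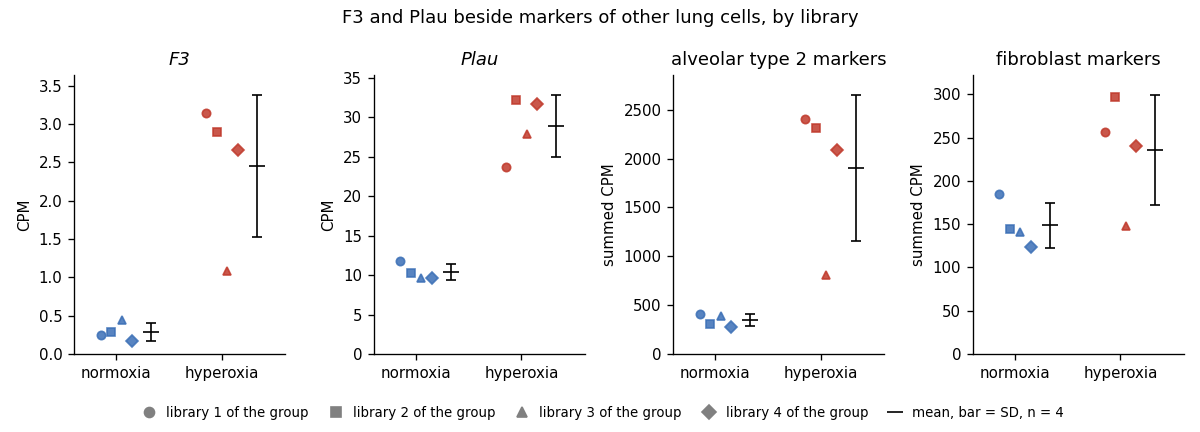
F3 and Plau (CPM) beside the summed CPM of 8 AT2 markers and 8 fibroblast markers in each library of normoxia (blue) and hyperoxia (red), with the mean and SD (n = 4). Hyperoxia 3, drawn as a triangle, is the lowest hyperoxia library for F3 and both marker sums but not for Plau.

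Promoter sequences are shown for F3, Procr and Plaur, risen genes that share a short motif. Tfpi, which also rose, lacked it, and the risen genes Plat and Plau could not be searched for it. RefSeq windows (build GRCm38.p6) of 250 bases before a RefSeq start were used for 5 of the 9 genes, F3, F8, Procr, Plaur and Tfpi, the last with a pair of windows. Vwf, Thbd, Plat and Plau were not searched. The RefSeq start can differ from the gene start of the deposited table, and in Procr it lies 100 bases downstream of the start given above, so 100 of the bases searched there lie within the gene as the table bounds it. In F8 and in 1 Tfpi window it lies farther inside the gene. The letters TGANTCA, the core bound by AP-1 factors, were found in 3 of these 5 genes and in 6.75% of 32851 windows of the same length. They were located 154 to 148 bases before the RefSeq start in Procr, 69 to 63 in Plaur, and in F3 at 146 to 140 and again at 135 to 129. The motif reads the same on both strands apart from its middle base, and both strands were searched. Each line gives the 150 bases before the earlier of the RefSeq start and the start in the table, 5′ to 3′ on the plus strand, with the TGANTCA matches in capitals, for Procr at chr2:155750967-155751116, for F3 at chr3:121723387-121723536 and for Plaur at chr7:24462333-24462482.
Procr: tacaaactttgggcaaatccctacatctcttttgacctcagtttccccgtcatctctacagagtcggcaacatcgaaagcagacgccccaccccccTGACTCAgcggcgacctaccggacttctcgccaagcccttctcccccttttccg
F3: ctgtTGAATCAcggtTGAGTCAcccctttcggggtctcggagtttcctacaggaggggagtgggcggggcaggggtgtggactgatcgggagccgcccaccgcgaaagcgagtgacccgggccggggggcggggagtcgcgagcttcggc
Plaur: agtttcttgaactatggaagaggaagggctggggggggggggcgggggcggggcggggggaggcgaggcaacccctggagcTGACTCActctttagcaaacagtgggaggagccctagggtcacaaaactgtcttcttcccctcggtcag
A match describes letters in a window and is no evidence of binding. The GC box GGGCGG was found in F3, Plaur and Tfpi and in 32.7% of all windows, and CACCC, the core of Kruppel-like factor sites, in F3, Procr and Tfpi and in 52.0%. One CACCC match of F3 shares 2 bases with its second TGANTCA match. TATAAA occurred in Tfpi only, and in 12.4% of all windows. The letters CCGGAA of ETS factors (12% of all windows) were in none of the 6 windows. Neither was the fixed NF-kB pattern that was searched (1.41%). NF-kB sites with other letters were not searched, so whether these windows hold such sites was not tested.

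Per unit of gene length, the 9 genes spanned a wide range. FPKM, the count of a gene relative to its length and to the total of the library, ordered them in normoxia as Thbd, Vwf, Plaur, Plat, Tfpi, Procr, Plau, F8 and F3. Mean FPKM in normoxia were 384 for Thbd and 128 for Vwf, and 0.355 for F8 and 0.112 for F3. The ranges of neighbours in this order did not overlap. In hyperoxia the first 7 kept their places, with 417 for Thbd, 150.4 for Vwf, 88.1 for Plaur, 43.1 for Plat, 18.3 for Tfpi, 12.9 for Procr and 12.1 for Plau, and the ranges of Procr and Plau overlapped. F3, at 0.962, then stood before F8, at 0.322, with ranges that overlapped.

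Ratios of FPKM between genes whose products act on each other were taken in each library, as values without a test. F3 to Tfpi went from 0.00783 ± 0.00341 to 0.0522 ± 0.0189 (SD, n = 4 each), with ranges that did not overlap. Thbd to Procr, the partners in protein C activation, went from 49.9 ± 4.52 to 32.3 ± 1.87, also without overlap. Plau to Plaur was 0.0942 ± 0.0228 and 0.138 ± 0.0200, and hyperoxia 1 at 0.110 lay below normoxia 1 at 0.127.

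**Figure D3:**
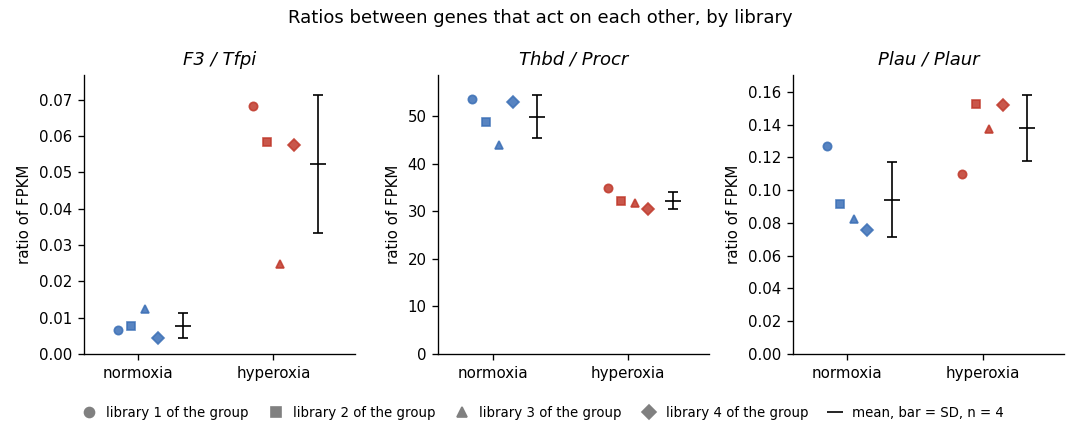
Ratios of FPKM in each library of normoxia (blue) and hyperoxia (red), with the mean and SD (n = 4). F3 to Tfpi is higher, and Thbd to Procr lower, in all 4 hyperoxia libraries, and the groups overlap for Plau to Plaur.

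The wider clotting and fibrinolysis system was described from 51 other genes in 7 lists. Of these, 33 passed the low-count filter, 16 rose, 2 fell and 15 did not pass the test, with a median log2 fold change of 0.43. Among all genes tested, 18.5% were higher and 17.1% lower in hyperoxia. The same shares stand beside the counts of each list below, and most lists hold few tested genes. The 18 below the filter had at most 13 counts in any library, and 3 had none. Of 15 clotting factors and cofactors, most of which circulate as plasma proteins, 11 were below the filter, and F5 alone passed the test, from 1.39 to 2.43 CPM (log2 fold change 0.80, SE 0.275, edgeR adjusted p = 0.0424). Its groups overlapped, and it lost the call in 8 of 18 alternatives, with adjusted p of 0.0239 to 0.12. F13a1, which encodes the catalytic subunit of the fibrin-crosslinking factor XIII, had 6.13 and 5.28 CPM (edgeR adjusted p = 0.625).

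Of the 6 tested genes of the list of plasminogen, its inhibitors and receptors, 4 rose and 1 fell. Serpine2, protease nexin, which inhibits thrombin and urokinase, went from 15.6 ± 3.67 to 63.5 ± 10.3 CPM (log2 fold change 2.03, SE 0.163, edgeR adjusted p = 6.72e-06). Its lowest hyperoxia value, 51.2 CPM, was in hyperoxia 3, above all normoxia libraries. Anxa2 and S100a10, which form a surface complex for plasminogen and its tissue-type activator, had log2 fold changes of 0.76 and 0.53 (edgeR adjusted p = 9.05e-06 and 0.00012). A small part of the exon bases of Anxa2, 2.63%, overlaps an antisense gene. Plgrkt, a plasminogen receptor named here after its values were seen, fell from 51.1 ± 1.64 to 37.1 ± 5.01 CPM (log2 fold change -0.46, SE 0.0862, edgeR adjusted p = 0.00191).

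Of 4 genes of the protease-activated receptor family, to which the thrombin receptors belong, 2 rose. F2r, the main thrombin receptor of ECs, went from 116 ± 5.75 to 185 ± 3.87 CPM (log2 fold change 0.67, edgeR adjusted p = 2.37e-06), and F2rl3 from 3.42 to 6.47 CPM (0.92, edgeR adjusted p = 0.0004). Among 5 tested further anticoagulants, Pros1, the protein S cofactor of activated protein C, rose from 110 to 181 CPM (log2 fold change 0.72, edgeR adjusted p = 3.81e-06), and Anxa5, which shields anionic phospholipid, from 175 to 273 CPM (0.64, edgeR adjusted p = 2.08e-05). The other 3 did not pass, and the median of the 5 was -0.31.

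Weibel-Palade bodies store von Willebrand factor in ECs, and 4 of 9 genes linked to them, to its cleavage or to factor VIII export rose. These were Selp (P-selectin, log2 fold change 0.74), Cd63 (a membrane protein of these bodies, 0.99), Angpt2 (a ligand of the receptor Tek stored there, 0.54) and Rab3d (0.59), with edgeR adjusted p-values of 9.23e-05 to 0.00316. Within hyperoxia, Cd63 and Rab3d were lowest in hyperoxia 3, at 18.9 and 24.9 CPM. Selp and Angpt2 were highest there, at 24.8 and 41.4 CPM. Parts of the exons of Selp, 9.93% and 4.21%, overlap a pair of antisense genes. Lman1 and Mcfd2, the cargo receptor pair that exports factor VIII, had log2 fold changes of 0.09 and -0.04 and did not pass the test (edgeR adjusted p = 0.208 and 0.725). In the vitamin K cycle, which activates several clotting factors and protein S, Ggcx rose (log2 fold change 0.27, edgeR adjusted p = 0.00314) and Vkorc1l1 fell (-0.18, edgeR adjusted p = 0.028). The call of Vkorc1l1 was lost in 6 of 18 alternatives, with adjusted p of 0.016 to 0.0902.

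Both ectonucleotidases that limit platelet activation rose. Nt5e (CD73), which makes adenosine, had 1.53, 0.910, 1.29 and 0.773 CPM in normoxia and 10.5, 9.06, 3.66 and 9.21 CPM in hyperoxia. Hyperoxia 3 was again the lowest of its group, above all normoxia libraries. The log2 fold change was 2.85 (SE 0.343, edgeR adjusted p = 0.000114), and 0.76 on the log2(FPKM + 1) scale. Entpd1 (CD39), which removes ATP and ADP, had 154 ± 4.97 and 189 ± 28.2 CPM (log2 fold change 0.29, edgeR adjusted p = 0.0307), with overlapping groups and a call lost in 8 of 18 alternatives, with adjusted p of 0.000788 to 0.0893.

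**Figure D4:**
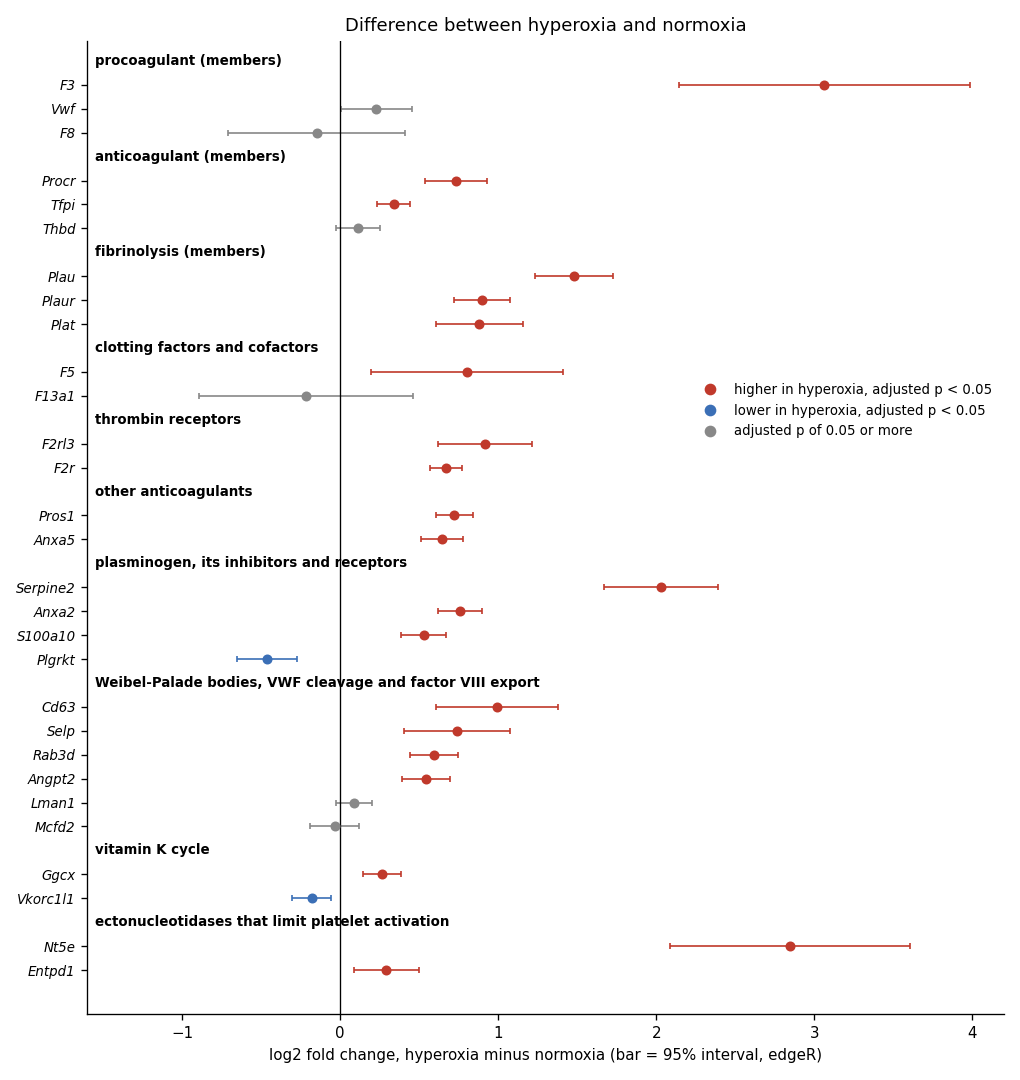
Log2 fold change (hyperoxia minus normoxia) of the 9 genes and of the named genes of the 7 other lists, with 95% intervals from edgeR. Red marks genes higher and blue genes lower in hyperoxia at an adjusted p under 0.05, and grey the rest. F3, Nt5e and Serpine2 have log2 fold changes of 2.03 to 3.06, and Plgrkt and Vkorc1l1 are the named genes that fell.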

How the data were processed

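Gene counts of 8 bulk RNA-seq libraries were analysed. Per the labels, reads were paired ends of 150 bases from an Illumina NovaSeq, and the submitters' processing notes name HISAT2 2.0.5, featureCounts 1.5.0-p3 and build mm10. The annotation, strandedness and the treatment of multimapping reads were not given in the sources used here. The authors deposited whole-number counts and FPKM for 54532 genes. The deposited FPKM equalled the count over gene length and library total, times a constant per library of 0.974 to 1.01. Of the gene identifiers 54409 were in GENCODE M21 (GRCm38), 53499 of them with the same coordinates. The labels and the methods name different RNA extraction reagents.

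Groups were taken from the sample titles. Counts were tested with edgeR 4.0.16 (R 4.3.3; TMM, filterByExpr, group as the only term), which kept 15564 genes, with Benjamini-Hochberg adjustment over all of them. The 9 genes and the lists were chosen with earlier results of these data known. Named were the 9 genes, the 2 most abundant genes of each other list, and at most 4 per list that passed with a mean of at least 1 CPM; 1 of these genes is not reported here. Motif letters were searched in RefSeq windows. Alternatives were DESeq2 1.42.0, limma-voom and limma 3.58.1 on log2(FPKM + 1) and log2(FPKM + 0.1), other normalizations, filters and thresholds, the replicate number as a block and leaving out each library. Spread between libraries of a group exceeded counting noise (chi-square per degree of freedom 5.08 to 17.9). The test was also run on counts simulated from the mean CPM of each gene over all 8 libraries and the estimated dispersions. Only 200 genes were changed there, whereas 35.6% of all genes tested passed in the data. With 15316 genes in the fit, the test called 72 of 100 genes changed 2-fold and 54 of 100 changed 1.5-fold, all in the right direction. It also called 7 unchanged genes.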

Additional observations from a re-analysis of the deposited data

Results flagged for a closer look

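In 3 of 96 groups of 4 values examined (each named gene, marker sum and ratio and the library total, in each group), the highest or lowest library lay farther from the others than Dixon's 95% limit, and chance gives about 1 in 20, or 4.8. F8 in hyperoxia 3 had 5.09 CPM, and the rest of its group 2.55 to 2.61 CPM. The summed level of mural and smooth muscle markers in normoxia 1 was 47.9 CPM, against 23.5 to 27.6 CPM in the other normoxia libraries. The summed level of neutrophil markers in hyperoxia 1 was 79.7 CPM, with 15.2 to 21.0 CPM in hyperoxia 2 to 4, and 0 of the 5 tested neutrophil markers passed edgeR's test, or an unadjusted p under 0.05.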

How the results depend on the processing

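The count of 6 higher genes of the 9 was 2 when the log2 fold change also had to reach 1 in size, 7 without the low-count filter and 6 to 7 with single libraries left out, where Vwf was added without hyperoxia 1. The count of 0 lower was the same in all 20 alternatives. Of the other clotting and fibrinolysis genes, 16 higher became 3 with that fold condition and 14 to 15 with single libraries left out. The 2 lower became 3 in 6 alternatives (upper-quartile factors, library totals, DESeq2, limma-voom and both limma fits on FPKM). They became 0 with that fold condition, 1 without the filter and 1 at an adjusted p under 0.01. With single libraries left out they were 1 to 2 (1 without normoxia 1, normoxia 3, normoxia 4 or hyperoxia 1). Vkorc1l1 was not called in the settings that gave 0 or 1. It also lost its call without hyperoxia 2 (edgeR adjusted p = 0.0902), where another gene made up the count of 2. Mcfd2, with -0.04, was 0.00036 without normoxia 3 and 0.0053 without hyperoxia 3, and ran from -0.0905 to 0.005346 with single libraries left out; the cause was not tested. Same-numbered residuals correlated at -0.14 to 0.12, and not every library correlated best with its own number. With 4 libraries a group, these correlations cannot show whether the libraries were paired by number. Plat had the same order of library numbers in both groups. A block for the number lowered the SE of Plat from 0.125 to 0.0601 and of F8 from 0.254 to 0.189. It raised the SE of Vwf from 0.103 to 0.115 and of F3 from 0.416 to 0.448. With the number as a block, 6 of the 9 genes and 15 of the others were higher, and F5 lost its call (adjusted p = 0.0877). Depth limits F3 in normoxia, which rests on 3 to 8 counts a library.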

Other observations

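Gene expression patterns most like those of the genes with the largest and the smallest log2 fold change were described over the 8 libraries, with protein-coding genes whose mean reached 10 CPM. Pearson's r of log2(CPM + 0.1) with F3 was 0.996 for Slc39a8, a zinc and manganese transporter, 0.993 for Col12a1, a fibril-associated collagen, and 0.992 for Scd1, a fatty acid desaturase. Slc39a8 averaged 5.60 and 20.2 CPM in the normoxia and hyperoxia groups, with 11.7 CPM in hyperoxia 3, the lowest of its group. Col12a1 averaged 10.7 and 31.6 CPM, and Scd1 21.3 and 109.8 CPM, both also lowest in hyperoxia 3 within hyperoxia. With F8, r was 0.951 for Helq, a DNA helicase, 0.928 for Wdhd1, a replication factor, and 0.922 for Parp1, which acts in DNA repair. All 3 were highest in hyperoxia 3 within hyperoxia, with 13.1, 18.9 and 66.5 CPM. These points share libraries and a group difference, and the values are descriptions without a test.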
